A study of Mus musculus with 374 samples.

Results

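The receptors described here are Kit, Flt3, Il7r, Epor, Csf1r, Csf2ra, Csf2rb, Csf3r and Il3ra, 9 genes chosen by name as haematopoietic cytokine receptors. No rule on their values was used, but earlier results of these data were known when they were chosen. The receptors are 9 of the 19829 mouse genes in the count table. Of the 9, 8 had at least 50 UMIs over all wells and Il3ra had 6. UMIs are molecular tags that let each captured transcript be counted a single time.

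Single cells of 5 populations were sorted from 1 C57BL/6 female mouse aged 10 to 13 weeks into 1 plate, and their transcripts were counted at the 3' end by CEL-seq2. From the bone marrow came 95 progenitor/stem cells (Lin-, Kit+ and Sca1+), 96 granulocytes (Mac1+ and Gr1+), 96 erythroblasts (positive for Ter119 and CD44, with middle to high forward scatter) and 44 B lymphocytes (B220+ with low forward scatter). From the thymus came 43 T lymphocytes, gated on CD3 and low forward scatter. The labels name no treatment and no altered allele, and each population is a single sample of it, so that no value below has a biological replicate.

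Cytokine receptors carry signals for survival, growth and lineage choice into blood cells. Kit, Flt3 and Csf1r are receptor tyrosine kinases, which hold their own kinase. The others have no kinase of their own and work through the JAK kinases and STAT factors bound to their chains. Kit, the receptor of stem cell factor, and Flt3 are known from stem and early progenitor cells, Il7r from lymphoid cells, Epor from red cell precursors, and Csf1r, Csf2ra and Csf3r from cells of the myeloid lineage. Il3ra and Csf2ra are ligand-specific alpha chains that signal with a shared beta chain, Csf2rb.

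The promoter sequences below are shown because factors known from blood lineages have short binding motifs that can be looked for in them. They come from RefSeq (GRCm38.p6), are written 5' to 3' on the strand of the gene, and end before the RefSeq start of the transcript. Those of Epor, Csf2ra and Kit also lie outside the gene in GENCODE M21, while the 30 bases shown for Csf3r lie inside it, since its GENCODE start is further upstream. Capitals mark matches to a GATA motif (AGATAA or AGATAG or TGATAA or TGATAG), a PU.1 motif (GAGGAA) or a C/EBP motif (TTNCNNAA), on either strand.
Epor, chr9:21963577-21963826, minus strand: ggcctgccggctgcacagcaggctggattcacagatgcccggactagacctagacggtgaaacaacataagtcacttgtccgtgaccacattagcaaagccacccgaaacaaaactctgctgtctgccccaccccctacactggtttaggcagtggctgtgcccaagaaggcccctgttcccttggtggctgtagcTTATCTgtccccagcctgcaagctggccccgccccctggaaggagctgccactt
Csf2ra, chr19:61228430-61228668, minus strand: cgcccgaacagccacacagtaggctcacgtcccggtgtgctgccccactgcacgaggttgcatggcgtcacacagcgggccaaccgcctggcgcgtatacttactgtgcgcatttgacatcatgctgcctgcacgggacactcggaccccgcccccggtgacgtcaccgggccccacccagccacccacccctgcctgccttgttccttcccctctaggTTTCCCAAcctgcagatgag
Csf3r, chr4:126024561-126024590, plus strand: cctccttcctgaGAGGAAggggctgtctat
Kit, chr5:75574737-75574915, plus strand: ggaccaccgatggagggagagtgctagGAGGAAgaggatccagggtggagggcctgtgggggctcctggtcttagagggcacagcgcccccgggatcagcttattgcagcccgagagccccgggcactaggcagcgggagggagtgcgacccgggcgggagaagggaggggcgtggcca

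In the 250 bases before the RefSeq start, Epor held 1 GATA match, which lay 54 to 49 bases before the start on the reverse strand. GATA1, the factor that reads this motif in red cells, is known as a regulator of erythroid genes. Csf2ra held 2 PU.1 matches, at 14 to 9 and 8 to 3 bases before the start and so not wholly inside the printed stretch, and 1 C/EBP match 31 to 24 bases before it. Csf3r held 1 PU.1 match and Kit 1, at 86 to 81 and 223 to 218 bases before the start. Il7r held 1 C/EBP match at 174 to 167 bases, Il3ra held 1 GATA match at 147 to 142 and 1 C/EBP match at 134 to 127 bases, and Flt3 held none of the motifs. Among 32817 promoter windows of this length in the RefSeq table, 26.6% held the GATA motif, 23.3% the PU.1 motif and 36.8% the C/EBP motif. The matches are therefore common and describe the letters of the windows only. Of the 9 receptors, 7 had an entry in this table.

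The wells held 8 to 24033 UMIs on mouse genes, with medians of 7959 in the progenitor/stem cells, 6113.5 for erythroblasts, 4347 for T lymphocytes, 3880 for granulocytes and 3028.5 for B lymphocytes. The 374 wells had 374 distinct barcodes. Each population was highest for its own marker list, for example 9558 CPM (UMIs of the gene per 1e6 UMIs on mouse genes, from counts summed over the wells) for 7 B lymphocyte markers in the B lymphocytes against at most 309 elsewhere. The haemoglobin genes took 23.5% of the UMIs in the erythroblasts and 1.21% to 2.83% in the other populations. The profile of 7 wells was nearest to a population other than their own. Among them was the B lymphocyte well A8, which was nearest to the granulocytes and had a Gr1 index fluorescence of 15209 units, against at most 872 in the other B lymphocytes.

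Of the 8 receptors with at least 50 UMIs, 6 were called, which means that the CPM of the highest population was at least 4 times that of the next, with sums under 3 UMIs set to 3. The same rule called 594 of 6317 genes, a background of 9.4%. By population, 2 receptors were called in the progenitor/stem cells (Kit and Flt3; 0.76% of genes), 3 in the granulocytes (Csf1r, Csf2ra and Csf3r; 3.02% of genes) and 1 in the erythroblasts (Epor; 3.91% of genes). None was called in the B lymphocytes (0.712% of genes) or the T lymphocytes (0.997% of genes). The median log2 ratio of the highest population to the next was 2.93 over the 8 receptors and 0.49 over all genes tested. Intervals given below are 95% exact intervals (Poisson for levels, binomial for shares and conditional binomial for ratios) and cover counting error only.

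**Figure D1:**
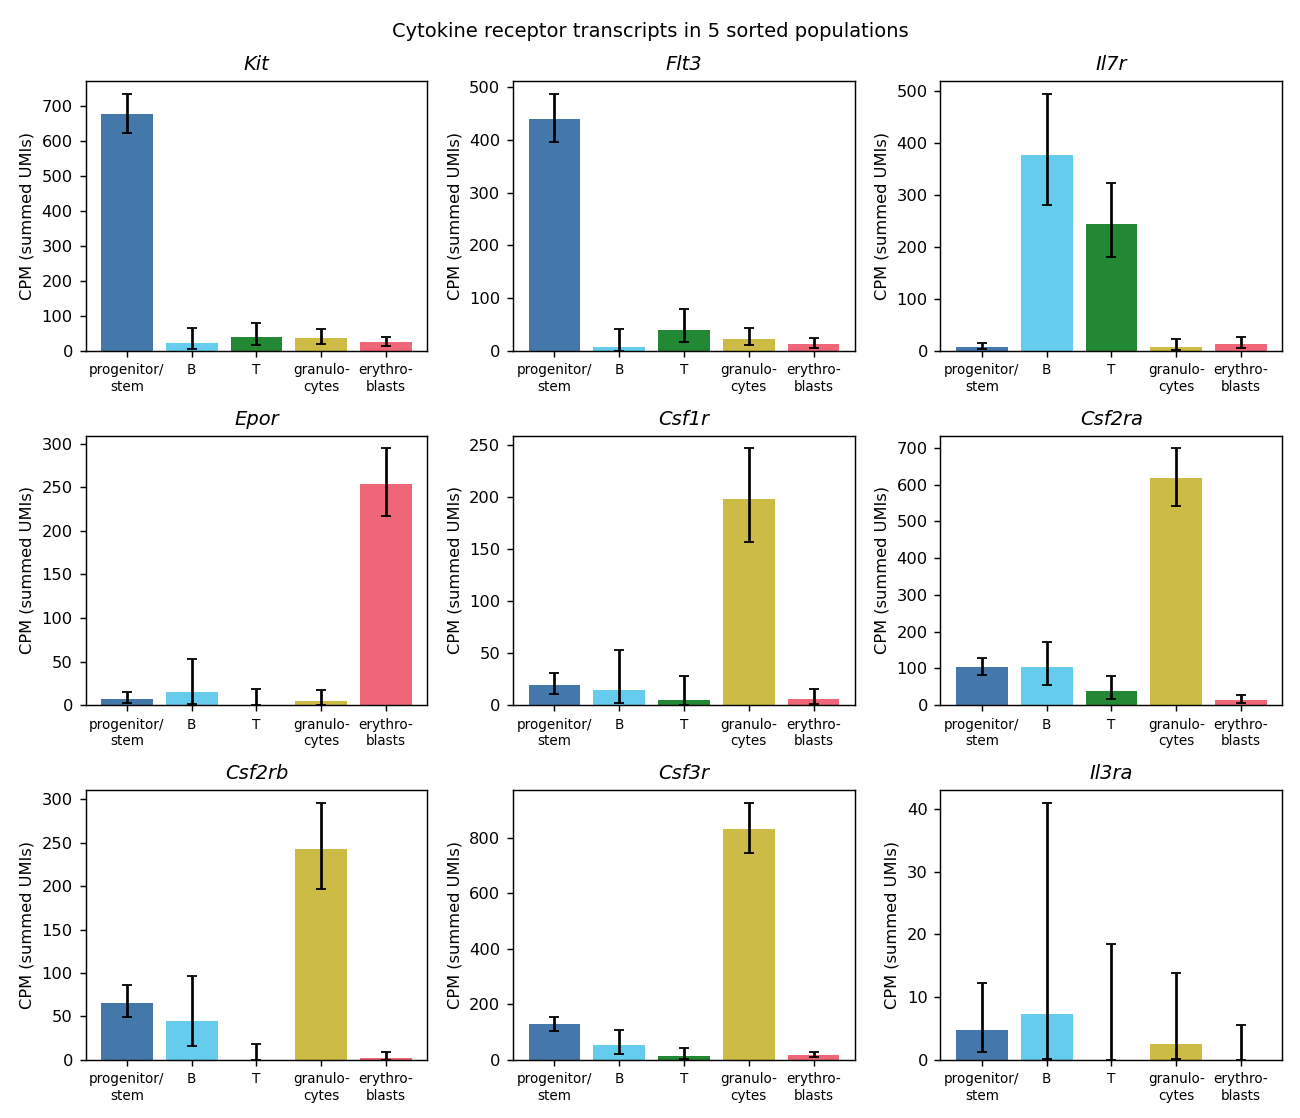
CPM of each receptor (vertical axes, linear, a separate scale per gene) in the 5 sorted populations, from UMIs summed over the wells. Error bars are 95% exact Poisson intervals for counting error, with 1 mouse per population; Kit and Flt3 stand at 677 and 440 CPM in the progenitor/stem cells, Epor at 253 CPM in the erythroblasts, and the 4 Csf receptors are highest in the granulocytes.

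Kit was high in a single population. The progenitor/stem cells held 565 Kit UMIs, or 677 CPM (622 to 735), against 3 UMIs for B lymphocytes, 8 for T lymphocytes, 15 for granulocytes and 16 for erythroblasts. These other levels lay between 22.1 and 39.9 CPM, and the ratio of each to its neighbour in the order had an interval that included 1. The progenitor/stem cells were 17.0 times (8.55 to 39.5) above the T lymphocytes, the next in order. The gate of the progenitor/stem cells used the Kit protein, so that a high level of the Kit transcript there is not independent of the selection.

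Per well, Kit ranged from 0 to 20 UMIs in the progenitor/stem cells with a median of 5, and did not exceed 3 UMIs in any other well. It was detected in 93 of 95 progenitor/stem wells (97.9%, 92.6 to 99.7) and in 6.82% to 16.7% of the wells of the other populations. After thinning each well to 2000 UMIs the share was 72.9% in the progenitor/stem cells and 5.05% to 7.56% elsewhere. Whether the low counts outside the progenitor/stem cells are expression or free RNA was not tested.

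The sorter recorded the c-Kit fluorescence of each cell with its well, so that the surface protein can be set beside its own transcript. The fluorescence in the progenitor/stem cells had a median of 6329 units (range 2842 to 13046). Elsewhere the highest value was 1511 for granulocytes, 722 for erythroblasts, 453 for T lymphocytes and 247 for B lymphocytes. No well of another population reached the lowest progenitor/stem cell.

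Within the progenitor/stem cells, wells with more c-Kit protein held more Kit transcript. The 24 wells with the lowest fluorescence, up to 4746 units, had 414 CPM (334 to 508) of Kit, and the 24 wells with the highest, from 7666 units, had 812 CPM (698 to 939). The 2 groups between them stood at 752 and 751 CPM, so that the step lay at the lowest fluorescence. Over the 95 wells the Spearman correlation of Kit CPM with fluorescence was 0.37, a description over cells of 1 mouse that share a gate. The number of UMIs per well had a correlation of 0.05 with the fluorescence.

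The 2 progenitor/stem wells without a Kit UMI stood at the ends of the fluorescence range. Well K5 had the highest c-Kit fluorescence, 13046, and the fewest UMIs of its population, 2003. Well L6 had the lowest fluorescence, 2842, with 12619 UMIs, of which 9 were on Flt3. K5 is also 1 of the 7 wells whose profile was nearest to another population.

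**Figure D2:**
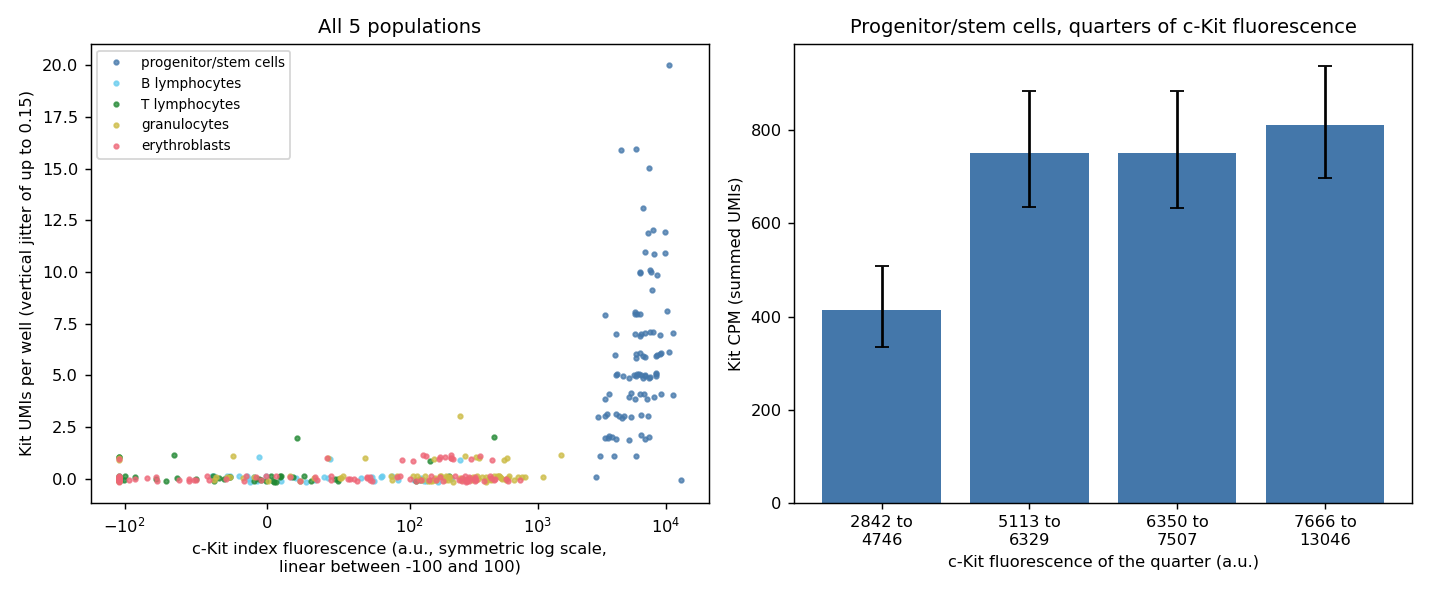
On the left are Kit UMIs per well against c-Kit index fluorescence (arbitrary units, symmetric log axis) for all wells, coloured by population, with a vertical jitter of up to 0.15 UMI. On the right is Kit CPM with 95% exact Poisson intervals in 4 groups of progenitor/stem wells ordered by fluorescence; the group with the lowest fluorescence is at 414 CPM and the other groups at 751 to 812 CPM.

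Flt3, which is known from early progenitors with lymphoid and myeloid potential, was also highest in the progenitor/stem cells. It had 367 UMIs there, or 440 CPM (396 to 487), against 1 UMI for B lymphocytes, 8 for T lymphocytes, 9 for granulocytes and 8 for erythroblasts. The ratio to the T lymphocytes, the next in order at 39.9 CPM, was 11.0 (5.53 to 25.7), and neighbours in the order of the 4 lower populations did not differ beyond counting error. The single B lymphocyte UMI was in well A8. Flt3 was detected in 75 of 95 progenitor/stem wells, with a median of 2 UMIs and a highest value of 18, and in 2.27% to 18.6% of the wells elsewhere (48.4% against 1.34% to 8.46% after thinning).

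Flt3 and Kit went opposite ways with c-Kit fluorescence. In progenitor/stem wells at or below the median of 6329 units, Flt3 was at 614 CPM and Kit at 571. In wells above it, Flt3 was at 263 CPM and Kit at 783. The log2 difference of the wells above from those at or below was -1.23 (-1.56 to -0.90) for Flt3 and 0.46 (0.21 to 0.70) for Kit, while the median depth of the 2 groups of wells was 8223 and 7889.5 UMIs. With Sca-1 fluorescence Flt3 differed in the other direction, from 304 CPM at or below the median to 592 above it, a log2 difference of 0.96 (0.65 to 1.28). Kit did not differ beyond counting error by Sca-1 (0.09, -0.16 to 0.33). The c-Kit and Sca-1 values of these cells had a Spearman correlation of -0.21.

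Another list moved with Flt3 in these splits. The 7 genes listed for B cell precursors stood at 800 CPM in the wells of lower c-Kit and 82.0 CPM in those of higher c-Kit, and 302 of the 336 UMIs in the former were on Dntt, the terminal transferase of developing lymphocytes. By Sca-1 the list was at 297 CPM below and 607 CPM above the median. The 5 megakaryocyte markers were lower in the wells of lower c-Kit, at 59.5 against 154 CPM, and the 5 markers used as a check of the progenitor/stem cells were at 2407 and 2579 CPM. The part of any of these differences in the Flt3 level was not tested.

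Il7r, the chain that binds interleukin-7 in developing and mature lymphocytes, had the smallest ratio of its highest population to the next among the 8 receptors. B lymphocytes held 51 UMIs, or 376 CPM (280 to 494), and T lymphocytes held 49, or 245 CPM (181 to 323). Erythroblasts had 9 UMIs, progenitor/stem cells 6 and granulocytes 3, at 7.19 to 13.5 CPM. The B lymphocytes were 1.54 times (1.02 to 2.32) above the T lymphocytes, and the T lymphocytes 18.1 times (8.81 to 41.9) above the erythroblasts. As mean UMIs per well, without scaling to depth, the ratio of B to T lymphocytes was 1.02.

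Il7r was detected in 22 of 44 B lymphocyte wells (50.0%, 34.6 to 65.4) and 21 of 43 T lymphocyte wells (48.8%, 33.3 to 64.5), and in 3.13% to 8.33% of the wells of the other populations. The highest B lymphocyte well held 6 UMIs and the highest T lymphocyte well 8. In the B lymphocytes, 17 of the 22 wells with Il7r also held Rag1, a recombinase gene of lymphocyte precursors that was found in 24 of the 44 wells. In the T lymphocytes, 4 of the 21 wells with Il7r held Cd8b1, a chain of CD8, which was found in 17 of the 43 wells. Cd4 was held by 10 of the 21 and was found in 23 of the 43 wells. Il7r CPM had a Spearman correlation over wells of 0.36 with Rag1 CPM among B lymphocytes. Among T lymphocytes it was -0.45 with Cd8b1 CPM and -0.05 with Cd4 CPM. For whole lists in B lymphocytes it was 0.36 with the B cell precursor genes and -0.13 with the mature B cell genes. For T lymphocytes it was -0.12 with the genes of mature thymocytes and -0.44 with those of double-positive (CD4 and CD8) thymocytes. The latter value rests on Cd8b1 (101 UMIs) and Cd4 (53 UMIs) alone, since Rag1, Rag2 and Arpp21 of that list had 0 UMIs there. It therefore adds little to the Cd8b1 value. These well counts and correlations are descriptions of sparse counts in cells of 1 mouse. By B220, CD3 and forward scatter, the Il7r level did not differ beyond counting error.

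Epor, the erythropoietin receptor, was high in the erythroblasts alone. It had 169 UMIs there, or 253 CPM (217 to 295), against 6 UMIs for progenitor/stem cells, 2 for B lymphocytes, 2 for granulocytes and 0 for T lymphocytes. With 2 UMIs in the B lymphocytes, the next in order at 14.7 CPM, the ratio of 17.2 had a wide interval (4.69 to 143). The 0 of 43 T lymphocyte wells allows a share of wells with a UMI of up to 6.98% when 3 counts are taken as the limit of a count of 0, and of up to 8.22% by the exact binomial interval. Epor was detected in 71 of 96 erythroblast wells (74.0%, 64.0 to 82.4), with a median of 1 UMI and at most 7, and in at most 6.32% of the wells of any other population. After thinning the shares were 39.6% and at most 3.43%.

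Within the erythroblasts Epor was at 302 CPM in wells at or below the median of CD44 fluorescence and at 222 CPM above it. CD44 is a surface protein that is lost as erythroblasts mature. The log2 difference was -0.44 (-0.89 to 0.01), which did not exceed counting error, and the wells of higher CD44 were deeper, with a median of 7756 UMIs against 5334. By forward scatter the difference was -0.17 (-0.63 to 0.28). Of the 71 erythroblast wells with Epor, 11 also held Kit and 6 held Flt3. Kit was found in 16 and Flt3 in 7 of all 96 erythroblast wells.

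**Figure D3:**
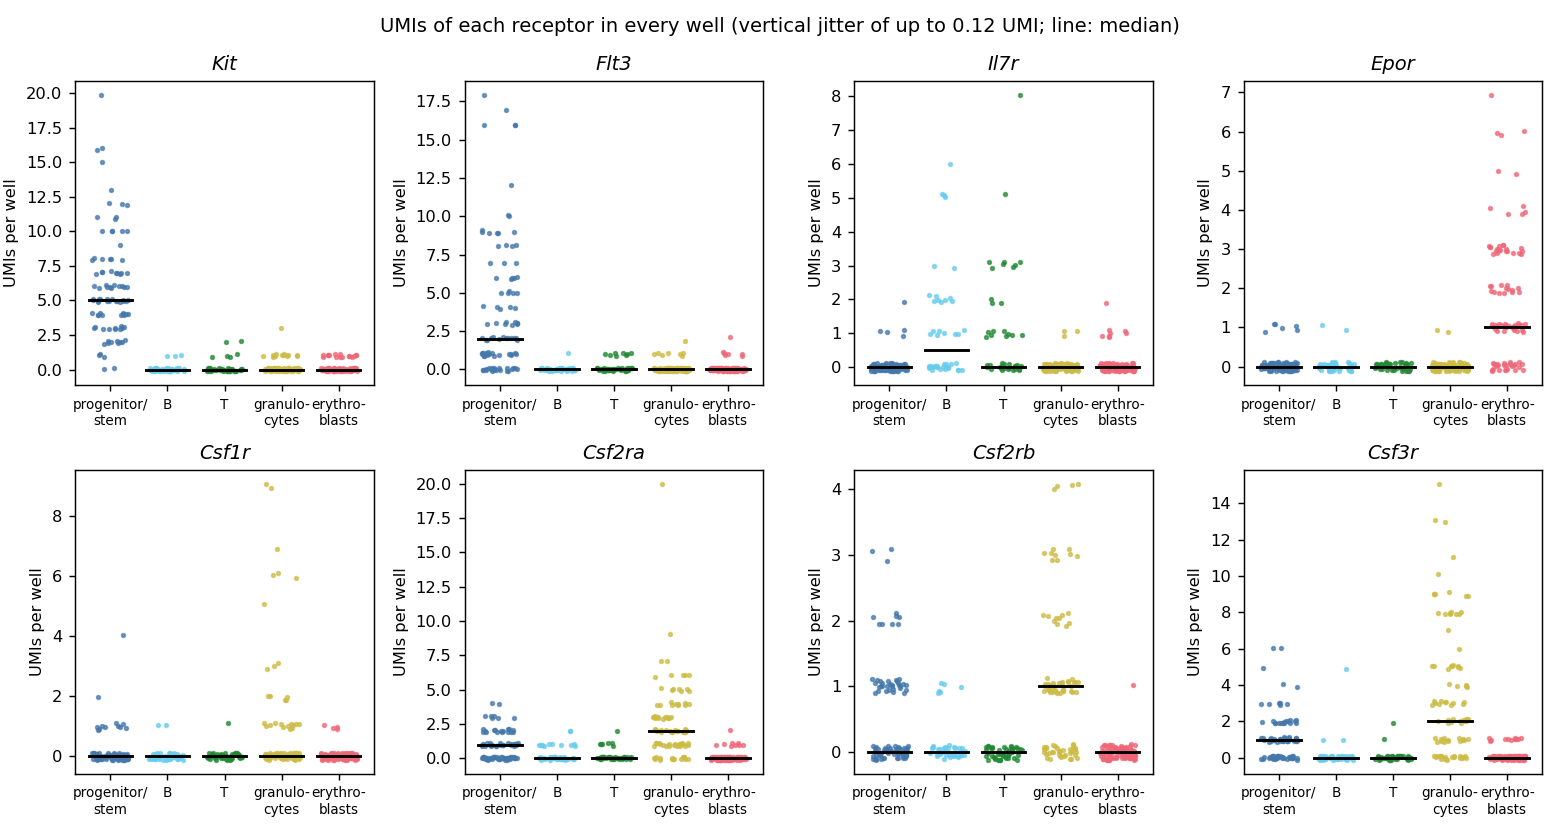
UMIs per well (vertical axes, linear) of 8 receptors in every well of the 5 populations, with a horizontal jitter and a vertical jitter of up to 0.12 UMI; black lines are medians. Kit has a median of 5 UMIs in the progenitor/stem cells and 0 in all other populations, and the B lymphocyte well with 5 Csf3r UMIs is well A8.

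The receptors of the colony-stimulating factors were highest in the granulocytes, with the progenitor/stem cells next for each of them. Csf3r, the receptor of granulocyte colony-stimulating factor, had 336 granulocyte UMIs, or 833 CPM (746 to 927), and 107 progenitor/stem UMIs, or 128 CPM (105 to 155). Erythroblasts had 11 UMIs, B lymphocytes 7 and T lymphocytes 3. Granulocytes were 6.50 times (5.21 to 8.15) above the progenitor/stem cells. Of the 7 B lymphocyte UMIs 5 came from well A8, and without it their level was 15.2 CPM instead of 51.5, beside 15.0 CPM for T lymphocytes and 16.5 CPM for erythroblasts.

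Csf3r was detected in 76 of 96 granulocyte wells (79.2%, 69.7 to 86.8) with a median of 2 UMIs and at most 15, in 59 of 95 progenitor/stem wells with a median of 1 and at most 6, and in 4.65% to 11.5% of the wells of the others. The progenitor/stem wells were deeper, and after thinning their share was 22.6% against 60.4% in the granulocytes and 3.01% to 8.55% in the others.

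Csf2ra, the alpha chain for granulocyte-macrophage colony-stimulating factor, had 249 UMIs in the granulocytes, or 617 CPM (543 to 699). Progenitor/stem cells had 87 UMIs and B lymphocytes 14, which gave 104 and 103 CPM with a ratio of 1.01 (0.571 to 1.93). T lymphocytes had 8 UMIs and erythroblasts 10. The granulocytes were 5.92 times (4.62 to 7.65) above the progenitor/stem cells. It was detected in 81 of 96 granulocyte wells (84.4%), 53 of 95 progenitor/stem wells and 12 of 44 B lymphocyte wells, and in 7 of 43 T lymphocyte wells (16.3%) and 9 of 96 erythroblast wells (9.38%). After thinning the shares were 70.1%, 18.8%, 18.7%, 7.57% and 3.35% in that order. The highest granulocyte well held 20 UMIs, against a median of 2.

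Csf2rb, the shared beta chain, had 98 granulocyte UMIs, or 243 CPM (197 to 296), and 55 progenitor/stem UMIs, or 65.9 CPM. B lymphocytes had 6 UMIs, erythroblasts 1 and T lymphocytes 0. Its ratio of 3.69 (2.62 to 5.23) to the progenitor/stem cells was below the call at 4-fold. It was detected in 58 of 96 granulocyte wells, 41 of 95 progenitor/stem wells and 1 erythroblast well, and for the 0 of 43 T lymphocyte wells the same limits of 6.98% and 8.22% hold. Csf2rb2, a nearly identical second beta chain gene of the mouse, had 3 UMIs in all, and reads shared by the 2 genes could have been counted to either or to none.

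The calls of Csf2ra, Csf2rb and Csf3r depended on the scale. Over 5917 genes the median log2 ratio of granulocytes to progenitor/stem cells was -0.74 as CPM, 0.03 with TMM factors and -1.70 as UMIs per spike-in (ERCC) UMI. With TMM factors the ratio was 10.1 for Csf2ra, 6.29 for Csf2rb and 11.1 for Csf3r, all past 4-fold, and per ERCC UMI it was 3.05, 1.90 and 3.35, all below it. Relative to the median gene on the CPM scale, the log2 ratio was 3.31 for Csf2ra, 2.63 for Csf2rb, 3.44 for Csf3r and 4.12 for Csf1r. The granulocytes stayed the highest population for these receptors on each scale tried.

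Csf1r, the receptor of macrophage colony-stimulating factor and of interleukin-34, had 80 granulocyte UMIs, or 198 CPM (157 to 247). Progenitor/stem cells had 16 UMIs, erythroblasts 4, B lymphocytes 2 and T lymphocytes 1. The granulocytes were 10.3 times (6.00 to 19.0) above the progenitor/stem cells at 19.2 CPM, and the other levels were 4.99 to 14.7 CPM. It was found in fewer granulocytes than the other Csf receptors, with UMIs in 28 of 96 wells (29.2%, 20.3 to 39.3), a median of 0 and up to 9 in a well. Exons of Csf1r overlap those of Hmgxb3 on the opposite strand, which had 13 UMIs in all.

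Csf3r and Csf1r differed in opposite directions with Gr1 fluorescence. In the 48 granulocyte wells at or below the median of 18601 units Csf3r was at 452 CPM and Csf1r at 264 CPM. In the 48 wells above it Csf3r was at 1386 CPM and Csf1r at 103 CPM. The log2 difference of the wells above from those below was 1.62 (1.28 to 1.96) for Csf3r and -1.35 (-2.22 to -0.56) for Csf1r. As means over wells of the CPM of each well the values were 1.38 and -0.65. Csf1r was found in 15 wells of lower and 13 wells of higher Gr1, and 7 wells with at least 5 UMIs, all of lower Gr1, held 48 of the 63 UMIs there. Among these wells was the deep well I13, with 7 Csf1r UMIs of its 22425. Csf2ra (0.22, -0.15 to 0.59) and Csf2rb (0.54, -0.06 to 1.14) did not differ beyond counting error, and no receptor did so by Mac-1 fluorescence. The wells of higher Gr1 were shallower, with a median of 3094 UMIs against 4712.

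Markers of monocytes moved with the same split. The 9 monocyte genes stood at 6703 CPM in the wells of lower Gr1 and 1799 CPM in those of higher Gr1. Within this list Ccr2 had 275 and 1 UMIs, Fn1 305 and 1, and Irf8 60 and 3. Ly6c2, which encodes a form of Ly6C, had 419 and 164. Of the 28 wells with Csf1r, 12 held Ccr2, which was found in 17 of the 96 wells, 12 held Fn1, found in 16, and 12 held Irf8, found in 17. The 5 macrophage genes in the table had 10 and 1 UMIs, and of them C1qa and C1qc were at 0 in the granulocytes and C1qb had 1 UMI. The rest were on Vcam1, with 6 and 0 UMIs, and Adgre1, with 3 and 1.

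Granulocyte genes differed too. The 8 granulocyte markers together were at 139318 CPM in the wells of lower Gr1 and 169509 CPM in those of higher Gr1. Within the list Retnlg was at 4686 and 18742 CPM and Mmp8, the neutrophil collagenase, at 2100 and 5562 CPM. Of the 8 markers 4 were higher and 4 lower in the wells of higher Gr1. The lower ones were Camp (11644 and 5520 CPM), Ngp (18380 and 11745), Ltf (8150 and 5453) and Lcn2 (8786 and 8103), which encode granule proteins. The part of the monocyte markers or of these genes in the Csf1r and Csf3r levels was not tested.

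**Figure D4:**
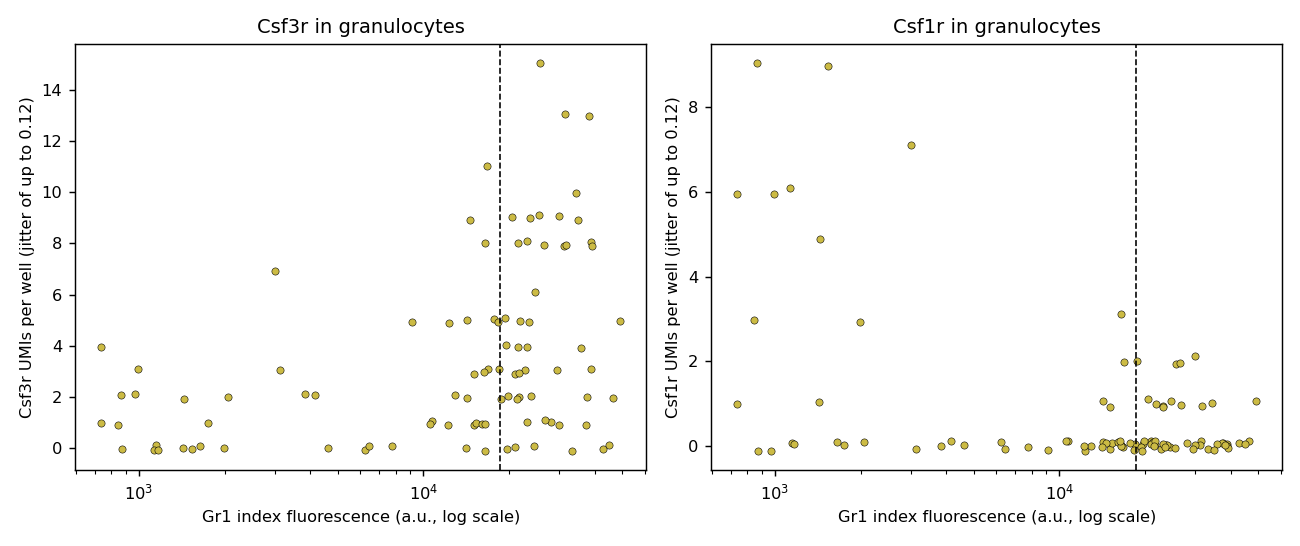
Csf3r (left) and Csf1r (right) UMIs per granulocyte well against Gr1 index fluorescence (arbitrary units, log axis), each of the 96 points a well with a vertical jitter of up to 0.12 UMI. The dashed line is the median of 18601 units; summed over wells, Csf3r is at 452 CPM at or below it and 1386 CPM above, and Csf1r at 264 and 103 CPM.

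Across all populations 29 comparisons of a receptor between wells above and at or below the median of an index channel could be made with at least 20 UMIs. In 5 of them the interval lay outside 0, which are the Csf3r, Csf1r, Kit and Flt3 values given above, and in 24 it included 0. Forward scatter, which follows cell size, gave no difference beyond counting error in any of its 8 comparisons.

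**Figure D5:**
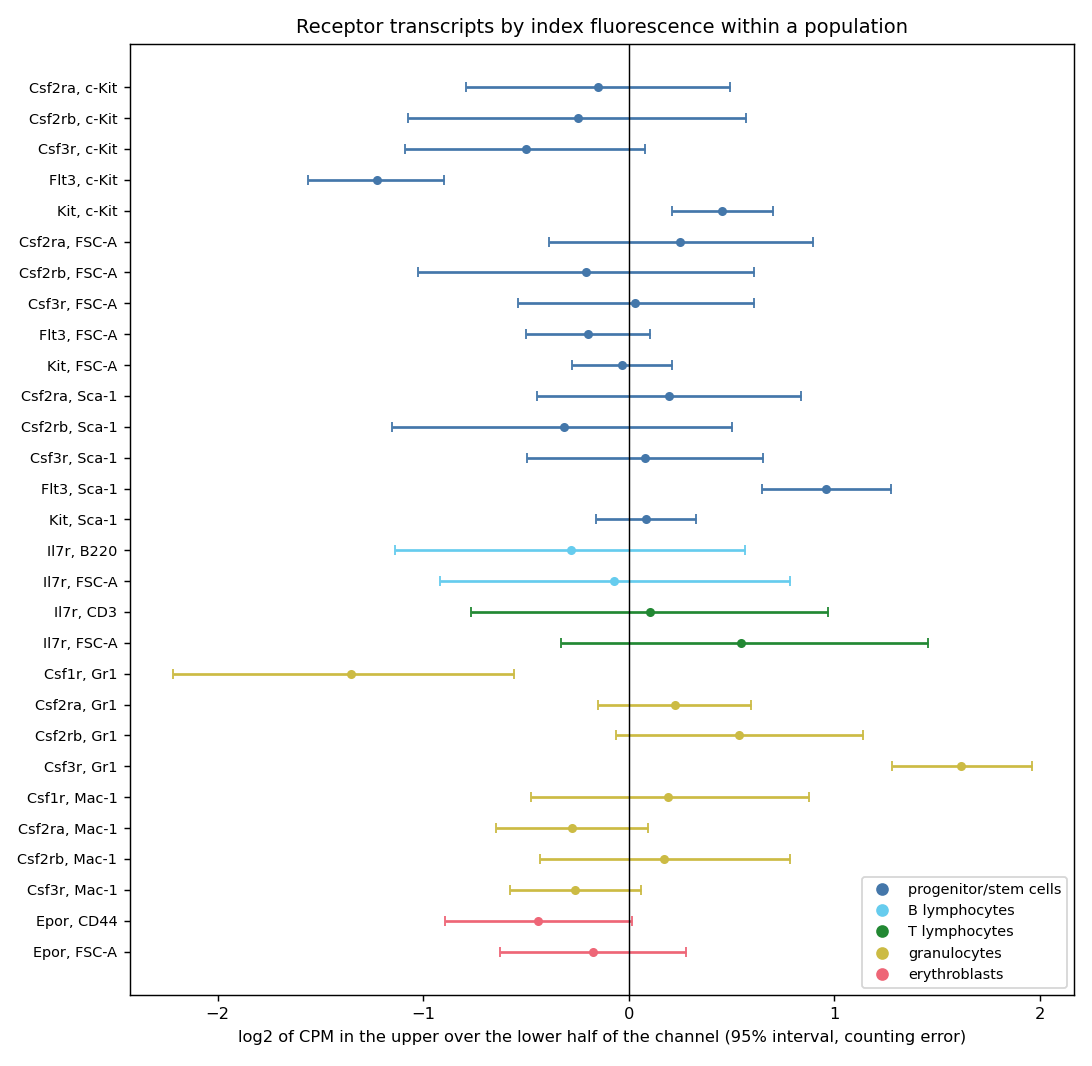
Log2 of the CPM in wells above the median of an index channel over that in wells at or below it (horizontal axis), for each receptor with at least 20 UMIs in the population; bars are 95% exact conditional binomial intervals for counting error. Of the 29 values, the 5 whose bars do not reach 0 are Csf3r and Csf1r by Gr1, Kit and Flt3 by c-Kit, and Flt3 by Sca-1.

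Il3ra, the alpha chain for interleukin-3, could not be described. Progenitor/stem cells had 4 UMIs, B lymphocytes 1, granulocytes 1, and T lymphocytes and erythroblasts 0. These counts allow up to 12.3 CPM in the progenitor/stem cells and up to 5.53 CPM in the erythroblasts by the Poisson interval. The same limit was 13.8 CPM for granulocytes, 18.4 CPM for T lymphocytes and 41.0 CPM for B lymphocytes.

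Several receptors could be found in the same well. A progenitor/stem well held UMIs of a median of 4 receptors and of up to 7, a granulocyte well a median of 3, and a well of the other populations a median of 1. In the progenitor/stem cells 74 of 95 wells held Kit and Flt3, 58 held Kit and Csf3r, and 50 held Flt3 and Csf3r. Singly, Kit was found in 93 of these wells, Flt3 in 75 and Csf3r in 59. In the granulocytes 65 of 96 wells held Csf2ra and Csf3r, and 49 held Csf2ra and Csf2rb, the chains of 1 receptor. Singly, Csf2ra was found in 81 of these wells, Csf3r in 76 and Csf2rb in 58. Whether 2 receptors shared wells more often than their single counts give was not tested. No receptor was found in 16 erythroblast, 13 T lymphocyte, 12 B lymphocyte, 3 granulocyte and 1 progenitor/stem wells. These counts follow the depth of the wells as well as the level of each gene.

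Of 35 partner chains and other cytokine receptors, 30 were in the table, 17 had at least 50 UMIs and 2 were called (11.8%, beside 9.4% of all genes tested). Il27ra, which was called, had 35 T lymphocyte UMIs (175 CPM) and 29 progenitor/stem UMIs (34.7 CPM). Il2rg, which pairs with Il7r in the interleukin-7 receptor, had 117 T lymphocyte UMIs (584 CPM) and 20 B lymphocyte UMIs (147 CPM), the reverse order of Il7r. Of the 21 T lymphocyte wells with Il7r, 17 also held Il2rg, which was found in 38 of all 43 T lymphocyte wells. Of the 22 B lymphocyte wells with Il7r, 9 held Il2rg, which was found in 17 of all 44.

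Of 10 ligand genes of these receptors 4 were in the table, and Flt3l alone had at least 50 UMIs, with 28 of its 60 in T lymphocytes (140 CPM) against 19 in progenitor/stem cells (22.8 CPM), a call at 4-fold. Of the 9 JAK and STAT genes with at least 50 UMIs none was called, of 6 negative regulators none, of 2 STAT5 target genes none, and of 7 adaptors and kinases 1. The latter was Fes, a kinase known from myeloid cells, at 335 CPM in the granulocytes and 81.5 CPM in the progenitor/stem cells. The rule called 9.4% of all genes tested, so that no call in such short lists is no evidence of a lower share. The median log2 ratio of the highest population to the next was 0.41 for the JAK and STAT genes and 0.33 for the negative regulators. It was 0.70 for the adaptors and kinases, 1.24 for the 2 STAT5 target genes and 1.03 for the partner chains and other receptors. Over all genes tested it was 0.49.

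The genes whose split of CPM over the 5 populations was most like that of a receptor, among genes with at least 50 UMIs, were Ctla2a and Adgrl4 for Kit and for Flt3. The measure is the summed difference of the 5 shares divided by 2, which is 0 for the same split, and it was 0.020 and 0.024 for Kit and 0.012 and 0.011 for Flt3. They were Gm37527 (0.0070) and Ypel4 (0.020) for Epor, and Foxo1 (0.037) and Btla (0.078) for Il7r. For the granulocyte receptors they were Ncf4 (0.018) and Dhrs7 (0.020) for Csf1r, Ap1s2 (0.029) for Csf2ra, Fam217b (0.042) and Ugt1a5 (0.0495) for Csf2rb, and Myo1f (0.030) and Ckap4 (0.031) for Csf3r. Ncf4 encodes a subunit of the oxidase that phagocytes use against microbes. A split over 5 sums describes these populations and is no measure of shared control.

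In GENCODE M21 (GRCm38) Kit (ENSMUSG00000005672) lies at 75574916 to 75656722 on the plus strand and Flt3 (ENSMUSG00000042817) at 147330741 to 147400489 on the minus strand of chromosome 5. Epor (ENSMUSG00000006235) lies at 21958897 to 21963506 on the minus strand of chromosome 9, Csf3r (ENSMUSG00000028859) at 126024550 to 126044440 on the plus strand of chromosome 4, and Csf2ra (ENSMUSG00000059326) at 61223957 to 61228429 on the minus strand of chromosome 19. On chromosome 15, Il7r (ENSMUSG00000003882) lies at 9505788 to 9530176 on the minus strand, and Csf2rb (ENSMUSG00000071713) at 78325752 to 78353847 on the plus strand beside Csf2rb2 at 78282507 to 78305721. Csf1r (ENSMUSG00000024621) lies at 61100598 to 61132149 on the plus strand of chromosome 18, and Il3ra (ENSMUSG00000068758) at 14346275 to 14356011 on the plus strand of chromosome 14.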

How the data were processed

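Single cells of 5 sorted populations of 1 mouse were measured by CEL-seq2. The authors deposited raw UMI counts for each gene in each well, made with scPipe (reads aligned, assigned to exons, demultiplexed and collapsed to UMIs). For the aligner version, genome build, annotation and strand setting, the entry is: not given in the sources used here. Columns were matched to labelled cells by well, and 9 columns that match no label were not used. Gene symbols and coordinates were taken from GENCODE M21 on GRCm38 (19755 of 19829 IDs matched), although the authors may have used another build, and promoters from RefSeq.

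Counts on mouse genes were summed per population and scaled to CPM. Because all populations came from a single mouse, no test between them was made. A gene with at least 50 UMIs was called where its highest population was at least 4-fold above the next, with sums under 3 UMIs set to 3. Shares of wells with a UMI were also computed for wells thinned to 2000 UMIs, with shallower wells left out. Each cell was sorted into its own well. Doublets were not called and no well was removed, so that a well that received more than 1 cell would still be counted. Promoter windows were searched with Python 3.11.15, which with numpy 2.4.6, pandas 2.3.3, scipy 1.17.1 and matplotlib 3.10.9 gave all other values. Size factors came from scran 1.30.0 and TMM factors from edgeR 4.0.16 in R 4.3.3, both for alternatives only. The intervals and the call were tested on simulated Poisson counts per population. These hold no spread between wells, so that the check does not cover such a spread.

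The 9 receptors, the gene lists and the alternatives were chosen with earlier results of these data known. Named genes are the 9 receptors, Csf2rb2 and Il2rg, the called genes of the pathway lists (at most 4 a list), the 2 genes nearest to each receptor, and genes of the marker lists that moved with a receptor, the last chosen after their values were seen. Some genes that this rule names are not reported here. The alternatives, 27 planned and 7 added after the data had been seen, changed the scaling, wells, count minimum, fold, thinning and correlation. Depth limits what can be said of Il3ra and of levels under about 3 UMIs per population. The human cell experiments of the paper are not analysed here.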

Additional observations from a re-analysis of the deposited data

How the results depend on the processing

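The number of receptors called was 6, and stayed within 4 and 7 over the alternatives. It was 7 with scran size factors, with TMM factors and at 2-fold, where Csf2rb was added, and 4 at 8-fold, per ERCC UMI and as mean UMIs per well, where Csf2ra and Csf3r were lost. Kit, Flt3, Epor and Csf1r were called under every one of these alternatives. The share of all genes called ranged from 3.51% (minimum of 1 UMI) to 24.1% (2-fold). The highest population was the same for 8 of 8 receptors under each scaling and choice of wells, and no direction reversed. The ratio of the highest population to the next ranged from 16.1 to 32.0 for Kit, 9.64 to 20.8 for Flt3, 16.6 to 41.2 for Epor, 1.02 to 1.71 for Il7r, 4.95 to 17.6 for Csf1r, 2.83 to 11.2 for Csf2ra, 1.76 to 7.51 for Csf2rb and 3.11 to 17.2 for Csf3r, and the cause of these ranges was not tested beyond the shift of the median gene. The correlation of Kit with c-Kit fluorescence in the progenitor/stem cells was 0.37, and 0.34 to 0.43 under its 4 alternatives. The minimum of 1000 UMIs per well and the smaller constant added to CPM could not move it. All 95 wells have at least 1000 UMIs, and ranks do not depend on that constant. The 5 differences by index fluorescence kept their sign in wells with at least 1000 UMIs and as means over wells. As means over wells that of Csf1r by Gr1 was -0.65 instead of -1.35 on the log2 scale. For the Kit and Flt3 differences the minimum of 1000 UMIs left out no well, so that it could not change them. No paired analysis was possible because each population is 1 sample and no result comes from a test. Shares of wells with a UMI follow the depth and moved with thinning, for Kit from 49.6% at 1000 UMIs to 97.9% with none.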
